A study of Mus musculus with 222 samples.

Results

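The tumors described here are those of the backcross mice, F1BX, set against those of the parental FVB strain. F1BX tumors were selected on a measured value, an interquartile range of at least 2.8 over the log2 values of the array, and FVB tumors by a name that begins with P. The rule left 140 F1BX tumors from 93 mice and 25 FVB tumors from 21 mice, of 222 arrays in all. These array ranges ran between 3.07 and 3.32 in the F1BX tumors and between 3.04 and 3.30 in the FVB tumors. In the 18 F1BX arrays left out by the limit the range was between 2.33 and 2.62, and no F1BX array lay between 2.62 and 3.07. In addition, 2 F1BX arrays whose names end in R were left out.

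All mice carried the MMTV-ErbB2 transgene, in which the mouse mammary tumor virus promoter, active mainly in mammary epithelium, drives the ErbB2 proto-oncogene. F1BX mice came from F1 males, themselves (C57BL/6 x FVB/N), crossed to FVB/N females without the transgene, and FVB mice were of the inbred FVB/N strain. Mice were females and tumors were taken at necropsy. The study reports a longer tumor latency and lifespan in F1BX than in FVB mice. The age at necropsy was not used here, so its part and that of the background cannot be told apart. Each array held RNA of 1 whole tumor on an Affymetrix mouse gene 1.0 ST chip, as log2 values after RMA normalization. Of the F1BX mice, 30 gave at least 2 of the arrays compared, 77 arrays together, and 4 FVB mice gave 2 each. In bulk tumors, fewer cells of a type and less RNA per cell cannot be told apart.

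In a backcross, each mouse inherits from its F1 parent either the FVB or the C57BL/6 allele at each autosomal locus, and always an FVB allele from the other parent. F1BX mice are thus FVB/FVB or FVB/C57BL/6 at a locus, F1 mice are FVB/C57BL/6 throughout, and FVB mice are FVB/FVB. A transcript whose level follows the allele at or near its own gene is expected to divide backcross mice into 2 levels and to be alike in tumors of the same mouse. A transcript that depends on what happened within a tumor need not be alike in tumors of the same mouse. No genotypes of the mice were used here.

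The arrays within the comparison resembled each other, with a median correlation with the other arrays between 0.929 and 0.983 in F1BX tumors and between 0.970 and 0.980 in FVB tumors. Erbb2, the product of which drives these tumors, was at 9.32, 12.42 and 12.86 (lowest, median and highest log2 expression) in F1BX tumors and at 11.90, 12.47 and 12.81 in FVB tumors. Its difference was -0.07 (SE 0.067, adjusted p = 0.596), so no change was called. The luminal keratins Krt8 and Krt18 averaged 12.63 ± 0.30 and 12.72 ± 0.33 (SD, n = 140) in F1BX tumors and 12.66 ± 0.17 and 12.71 ± 0.18 (SD, n = 25) in FVB tumors. The F1BX tumor 168T1 stood apart. Its Epcam, an epithelial adhesion molecule, was at 6.49, where the next lowest F1BX tumor was at 11.84, and its Erbb2 was at 9.32, where the next lowest was at 11.73. Its Krt8 and Krt18, at 12.88 and 12.66, were near the F1BX averages. Without 168T1, 665 genes were higher and 927 lower, against 628 and 873 with it, and no named gene changed its call.

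Of 35556 probe sets, 1514 (4.26%) were higher and 1310 (3.68%) were lower in F1BX than in FVB tumors at an adjusted p under 0.05, from limma with the mouse as a random block. With the FDR of at most 0.005 and the fold of at least 2 that the study used with SAM, 43 probe sets (0.121%) were called, 22 higher and 21 lower. Many probe sets carry no gene symbol, so genes were counted with 1 probe set each. Of 19938 genes, 628 (3.15%) were higher and 873 (4.38%) were lower. Most of these differences were small, with a median log2 fold change of 0.21 in the higher and -0.24 in the lower genes. Only 10 genes were higher and 22 lower by 1 or more on the log2 scale.

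The genes with the largest increases differed in how far tumors of the same F1BX mouse were alike. D17H6S56E-5, a chromosome 17 transcript, was at 7.74, 11.39 and 13.25 (lowest, median and highest) in F1BX tumors and at 8.42, 9.14 and 9.92 in FVB tumors. Of the 140 F1BX tumors, 80 lay above the highest FVB tumor and 56 within the FVB range, and none lay between 10.02 and 10.65. The log2 fold change was 1.65 (SE 0.301, adjusted p = 4.07e-05). Of the 30 F1BX mice with at least 2 tumors, 18 had all of them above the highest FVB tumor, 9 had all within the FVB range, and 3 were mixed. One mixed mouse had 145T5 at 12.50 and 145T1 and 145T6 at 9.17 and 9.47. In the remaining mixed mice, 117T3 was at 10.01, just above the highest FVB tumor, and 139T2 was at 8.11, below the lowest. The intraclass correlation, the share of the variance among F1BX tumors that lay between mice, was 0.88, the highest of all genes.

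Trim12a and Trim30d, of the tripartite motif family with roles in antiviral defence, lie on chromosome 7. Trim12a was at 4.56, 7.13 and 10.07 in F1BX tumors and at 4.46, 5.61 and 5.91 in FVB tumors. Above the highest FVB tumor were 94 F1BX tumors, and the log2 fold change was 1.45 (SE 0.273, adjusted p = 7.37e-05). All tumors were above the FVB range in 20 of the 30 mice, within it in 4, and 6 mice were mixed, with an intraclass correlation of 0.82. Trim30d was at 4.39, 6.07 and 8.69 in F1BX tumors and at 4.02, 5.15 and 6.37 in FVB tumors. Its log2 fold change was 1.10 (SE 0.219, adjusted p = 0.000227), with 62 F1BX tumors above every FVB tumor and an intraclass correlation of 0.65. Among the 15 measured genes of the list of TRIM and guanylate binding host defence genes, these were the only 2 called, beside 3.15% of all genes higher, and Trim30a and Trim12c had log2 fold changes of 0.17 and -0.14 (adjusted p = 0.695 and 0.517).

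H2-Eb1 encodes the beta chain of the class II molecule I-E, which presents peptides to helper T cells. It was at 6.79, 8.25 and 10.47 in F1BX tumors and at 6.92, 7.19 and 7.57 in FVB tumors. Of the F1BX tumors, 78 lay above the highest FVB tumor and 59 within the FVB range, with tumors on both sides close to that limit. Most tumors high for H2-Eb1 were also high for D17H6S56E-5, on the same chromosome, so these genes are not independent observations. The log2 fold change was 0.97 (SE 0.190, adjusted p = 0.000148). Of the 30 mice, 19 had every tumor above the FVB range, 9 had every tumor within it, and 2 were mixed, with an intraclass correlation of 0.77. Tumor 145T5 again stood apart from 145T1 and 145T6, with H2-Eb1 at 9.09 against 7.43 and 6.88. Its Trim12a, at 7.29 against 5.87 and 5.03, differed as well. Whether the name of 145T5 is right was not tested. H2-Eb1 was the only gene called among the 9 measured genes of the class II list, which had a median log2 fold change of 0.08, against -0.0036 over all genes. H2-Ab1, the beta chain of I-A, averaged 9.87 ± 0.66 (SD, n = 140) in F1BX tumors and 9.47 ± 0.47 (SD, n = 25) in FVB tumors and missed the threshold (log2 fold change 0.40, adjusted p = 0.0548). H2-Aa, its alpha chain, and the invariant chain Cd74 had log2 fold changes of 0.28 and 0.23 (adjusted p = 0.251 and 0.391). H2-Eb2, a second class II beta chain gene, averaged 6.07 ± 0.19 (SD, n = 140) in F1BX tumors and 5.99 ± 0.18 (SD, n = 25) in FVB tumors (log2 fold change 0.08, adjusted p = 0.237).

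Class II genes share proximal promoter elements, among them the Y box, an inverted CCAAT box bound by NF-Y. Because H2-Eb1 was called and H2-Eb2 and H2-Aa, on the same chromosome, were not, the 120 bases before the start of these genes are shown, from RefSeq on GRCm38.p6, the C57BL/6J assembly. Capitals mark GATTGG, the core of the Y box, or CCAATC, the same letters on the other strand. The windows are chr17:34305747-34305866 on the plus strand for H2-Eb1, chr17:34325555-34325674 on the plus strand for H2-Eb2 and chr17:34287824-34287943 on the minus strand for H2-Aa.
H2-Eb1: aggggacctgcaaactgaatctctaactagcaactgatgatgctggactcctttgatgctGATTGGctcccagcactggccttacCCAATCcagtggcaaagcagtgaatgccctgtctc
H2-Eb2: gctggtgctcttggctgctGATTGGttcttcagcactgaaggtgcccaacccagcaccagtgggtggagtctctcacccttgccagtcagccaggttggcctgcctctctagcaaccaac
H2-Aa: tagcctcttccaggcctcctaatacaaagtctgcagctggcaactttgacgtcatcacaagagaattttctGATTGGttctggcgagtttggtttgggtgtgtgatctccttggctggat
GATTGG began 60 bases before the start in H2-Eb1, 49 in H2-Aa and farther out in H2-Eb2, and H2-Eb1 also held CCAATC nearer the start. Of the 9 measured genes of the class II list, 6 had a promoter in the RefSeq table, and 5 of these held the letters, H2-Oa and H2-Ob besides those shown. Of all 32851 promoter windows of this length, 9.67% held GATTGG on either strand. The FVB sequence of these promoters was not used here.

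Apobec3 encodes a cytidine deaminase that restricts retroviruses, in mice also the mouse mammary tumor virus. It was at 8.63, 10.02 and 11.27 in F1BX tumors and at 8.88, 9.22 and 9.85 in FVB tumors, with 80 F1BX tumors above every FVB tumor. The log2 fold change was 0.71 (SE 0.128, adjusted p = 3.51e-05) and the intraclass correlation 0.63. A second probe set of Apobec3 had a log2 fold change of 1.17 (adjusted p = 2.24e-06). The zinc finger gene Zfp239, on chromosome 6, was at 6.07, 8.67 and 9.88 in F1BX tumors and at 6.50, 7.36 and 8.20 in FVB tumors, a log2 fold change of 0.89 (SE 0.209, adjusted p = 0.00196). Of its 30 mice, 16 were all above the FVB range, 11 all within it and 3 mixed. Arntl2, a circadian transcription factor also on chromosome 6, was at 6.05, 7.19 and 10.37 in F1BX tumors and at 6.20, 6.42 and 6.90 in FVB tumors, and rose by 0.79 (SE 0.171, adjusted p = 0.000798). The largest increase of all, outside the rule for named genes because its symbol is a clone name, was that of AI506816. It was chosen after its values were seen, at 4.16, 7.95 and 9.30 in F1BX tumors and 4.06, 4.54 and 5.0 in FVB tumors (log2 fold change 2.44, SE 0.351, adjusted p = 2.05e-07).

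**Figure D1:**
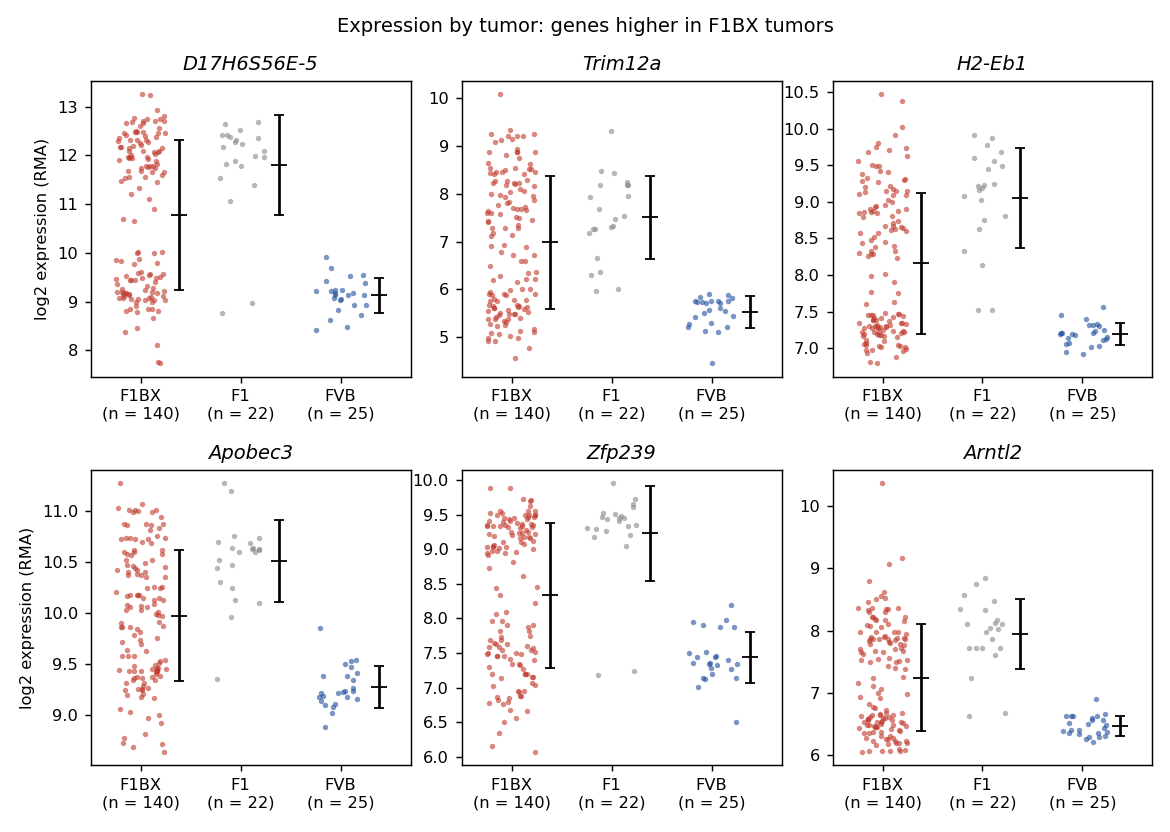
Log2 expression (y axis) of D17H6S56E-5, Trim12a, H2-Eb1, Apobec3, Zfp239 and Arntl2 in each tumor, for 140 F1BX, 22 F1 and 25 FVB tumors (x axis), with the mean and SD as bars. F1BX tumors reach from the FVB values up to those of most F1 tumors, for D17H6S56E-5 in 2 separate bands.

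The F1 tumors, which were not part of the test, can be set beside these values. Of the 22 F1 tumors with an array range of at least 2.8, 051T1 has a name of the F1BX form, and F21T3 and F21T4, from the same mouse, stood apart from the other 19 for several genes. D17H6S56E-5 was between 11.06 and 12.68 in those 19, with a mean of 12.11 ± 0.43 (SD, n = 19), and all 19 were above the highest FVB tumor. It was at 8.76 and 8.96 in F21T3 and F21T4. The same held for H2-Eb1 (9.21 ± 0.50, SD, n = 19, with 7.51 and 7.52 in F21T3 and F21T4), Zfp239 (9.43 ± 0.21, SD, n = 19, with 7.18 and 7.23) and Arntl2 (8.07 ± 0.41, SD, n = 19, with 6.68 and 6.62). All 19 lay above every FVB tumor for these genes and also for Trim12a and Apobec3. For Trim30d, 8 of the 19 did. F21T3 and F21T4 were not low for Apobec3, at 10.13 and 11.27 (lower and higher of the pair), and for Trim12a, at 5.96 and 6.02, they were just above the FVB range. In 051T1, D17H6S56E-5 was at 11.78, H2-Eb1 at 9.21, Zfp239 at 9.45, Arntl2 at 8.10 and Trim12a at 7.46, all above the FVB range, and Apobec3, at 9.35, was within it. Another tumor of the mouse, F21T2, was among the 19. Whether the names of F21T3 and F21T4 are right was not tested.

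The other large increases had lower intraclass correlations. Myo7a, an unconventional myosin, was at 7.02, 9.96 and 11.004 in F1BX tumors and at 6.90, 7.41 and 10.86 in FVB tumors. The groups overlapped in nearly all their range, 135 of 140 F1BX tumors lying within the FVB range, and FVB tumors were mostly at its low end. The log2 fold change was 1.31 (SE 0.255, adjusted p = 0.000145) and the intraclass correlation -0.07. Cpe, carboxypeptidase E, which trims prohormones, was at 6.77, 11.12 and 12.93 in F1BX tumors and at 6.98, 8.30 and 12.68 in FVB tumors, a log2 fold change of 1.21 (SE 0.369, adjusted p = 0.0244) with an intraclass correlation of 0.03. The adaptor gene Bcar3, the cation channel gene Trpm3 and the chloride channel regulators Clca3a1 and Clca3a2 rose by 0.91, 1.08, 0.99 and 0.96, with intraclass correlations of -0.16, 0.17, 0.10 and 0.14. Sema3b, a secreted semaphorin, and Usp17ld, a deubiquitinase, lay between, rising by 1.15 and 1.02 with intraclass correlations of 0.44 and 0.38. Of the 19 F1 tumors described above, 18 lay above every FVB tumor for Sema3b and 1 for Usp17ld. With 1 array per mouse, Cpe and Clca3a2 missed the threshold (adjusted p = 0.0593 for both).

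The genes with the largest decreases were led by Npy, Vsnl1 and Efhd1. Npy, neuropeptide Y, was at 6.23, 7.08 and 13.08 in F1BX tumors and at 6.73, 11.35 and 13.06 in FVB tumors. Most FVB tumors had high Npy and most F1BX tumors lay near the bottom of the FVB range, 26 of them below it. The log2 fold change was -2.27 (SE 0.399, adjusted p = 1.59e-05), a 4.83-fold decrease. Vsnl1, a neuronal calcium sensor, was at 5.44, 6.10 and 10.80 in F1BX tumors and at 5.90, 9.44 and 10.47 in FVB tumors (log2 fold change -1.78, SE 0.341, adjusted p = 0.000102). Efhd1, a mitochondrial calcium-binding protein, was at 5.18, 7.67 and 10.91 in F1BX tumors and at 6.27, 9.68 and 11.30 in FVB tumors (log2 fold change -1.59, SE 0.297, adjusted p = 6.33e-05). Duox1, a hydrogen peroxide producing oxidase, was at 6.21, 10.92 and 13.26 in F1BX tumors and at 9.89, 12.58 and 13.05 in FVB tumors, and fell by 1.21 (SE 0.257, adjusted p = 0.000575). Rdh12, a retinol dehydrogenase, Lao1, an amino acid oxidase, and Gldc, of the glycine cleavage system, fell by 1.53, 1.39 and 1.38. Dkkl1, Spink5, a protease inhibitor, and Pakap had log2 fold changes of -1.36, -1.28 and -1.14. The intraclass correlations of the 12 most decreased genes ran between -0.12 for Gldc and 0.47 for Dkkl1.

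**Figure D2:**
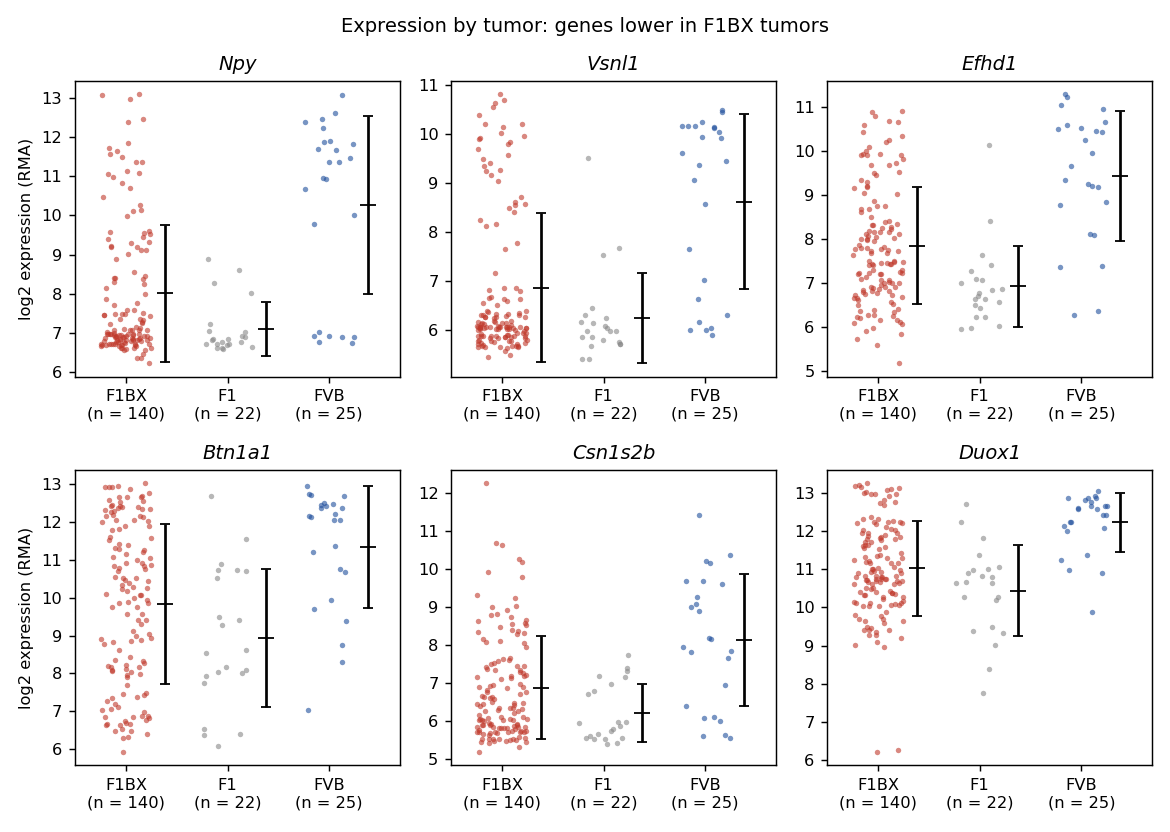
Log2 expression (y axis) of Npy, Vsnl1, Efhd1, Btn1a1, Csn1s2b and Duox1 in each of 140 F1BX, 22 F1 and 25 FVB tumors (x axis), with the mean and SD as bars. The groups overlap for each gene, and most F1BX tumors have Npy near the lowest FVB values, with a median of 7.08 against 11.35 in FVB tumors.

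Over all 19938 genes the median intraclass correlation was 0.10, and 130 genes (0.652%) reached 0.5. Of the 628 genes called higher, 32 (5.10%) reached it, and of the 873 called lower, 4 (0.458%). With predicted genes left out, 30 called genes reached 0.5, 28 of them higher. They lay on 16 chromosomes, and 27 of the 28 had a higher mean in the F1 tumors than in the F1BX tumors. Probes over strain differences were not removed, and their part in these calls was not tested. They included Vars, a valine tRNA ligase gene of chromosome 17 (0.79), Mtrr, of methionine synthase reactivation (0.79), the cytoskeletal talin gene Tln2 (0.79), Pnp, a purine nucleoside phosphorylase (0.69), and Metap1d, a methionine aminopeptidase (0.69). Their log2 fold changes were 0.39, 0.27, 0.53, 0.50 and 0.42. Among the 10 measured genes nearest on the chromosome to each of the genes described first, 2 others were also higher beside Apobec3, 1 beside D17H6S56E-5, Trim12a, Trim30d and Arntl2, and 0 beside H2-Eb1 and Zfp239, where 3.15% of all genes were higher.

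**Figure D3:**
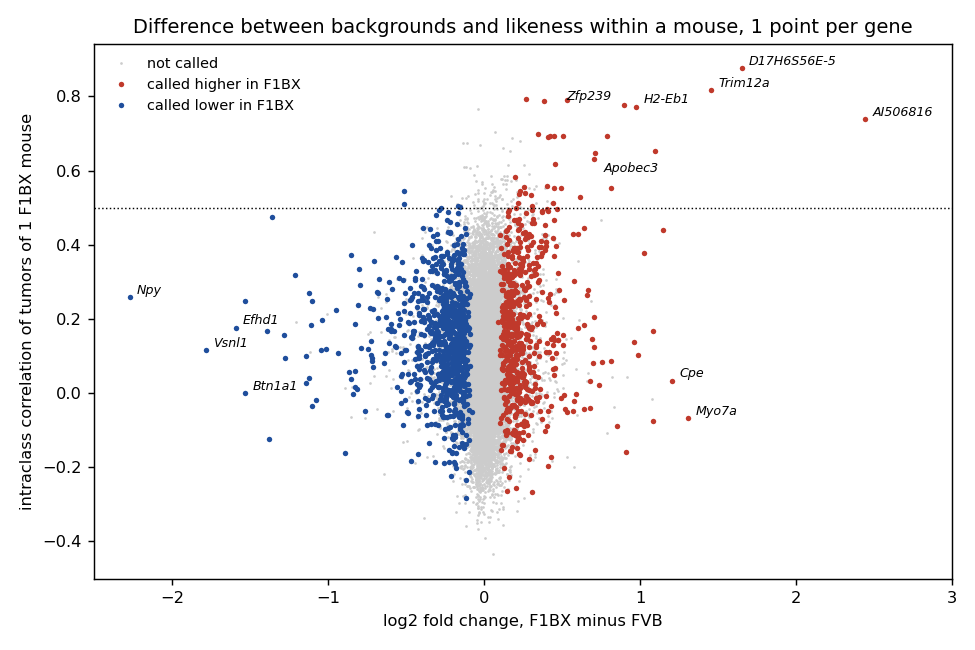
Intraclass correlation among F1BX tumors (y axis) against the log2 fold change of F1BX minus FVB tumors (x axis), 1 point per gene, 19938 genes, with called genes in color and a dotted line at 0.5. Above the line lie 32 genes called higher and 4 called lower in F1BX tumors, while Npy, Vsnl1, Efhd1, Myo7a and Cpe lie below it.

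The spread of the tumors around their group's median was compared with the same model. Of the genes, 24 (0.12%) varied more and 4 (0.0201%) varied less among F1BX than among FVB tumors. Of the 24, 17 were also called higher and 1 lower, and 19 had an intraclass correlation of at least 0.5. D17H6S56E-5 had an SD of 1.53 in F1BX and 0.35 in FVB tumors, Trim12a of 1.39 and 0.33, H2-Eb1 of 0.96 and 0.15, and Arntl2 of 0.86 and 0.16. C1qtnf1, a secreted protein related to the complement subunit C1q, had an SD of 1.11 in F1BX and 0.30 in FVB tumors (adjusted p = 0.0169 for the spread, and 0.0959 with 1 array per mouse). It was at 6.14, 7.29 and 10.35 in F1BX tumors and at 6.39, 7.01 and 7.48 in FVB tumors. The named genes with less spread in F1BX tumors were Pm20d1, Cdh20 and Ubtfl1, with SDs of 0.97, 0.38 and 0.16 in F1BX and 1.49, 0.93 and 0.26 in FVB tumors. The median SD of all genes was 0.226 in F1BX and 0.194 in FVB tumors.

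Milk genes are markers of secretory differentiation in the mammary gland and are driven by prolactin through STAT5. Of the 14 measured genes of the milk list, 4 fell, beside 4.38% of all genes lower, and the median log2 fold change of the list was -0.63. The milk fat globule protein gene Btn1a1 was at 5.92, 10.08 and 13.03 in F1BX tumors and at 7.02, 12.13 and 12.95 in FVB tumors (log2 fold change -1.53, SE 0.450, adjusted p = 0.0181). The casein gene Csn1s2b was at 5.20, 6.46 and 12.25 in F1BX tumors and at 5.57, 8.17 and 11.42 in FVB tumors (log2 fold change -1.29, SE 0.308, adjusted p = 0.00271). Mfge8, of the milk fat globule, and Plin2, which coats lipid droplets, fell by 0.71 and 0.45. The caseins Csn1s1, Csn2 and Csn1s2a had log2 fold changes of -0.85, -0.76 and -0.89, with spreads too wide for a call (adjusted p = 0.250, 0.257 and 0.169). Of 10 prolactin and STAT5 genes, 3 fell. Stat5a averaged 9.87 ± 0.49 (SD, n = 140) in F1BX tumors and 10.35 ± 0.57 (SD, n = 25) in FVB tumors, and Stat5b and the feedback inhibitor Socs2 fell by 0.26 and 0.32. With 1 array per mouse, 2 of the milk genes were called, and Stat5b missed the threshold (adjusted p = 0.0924), as it did with tumor 063T1 among the FVB tumors (adjusted p = 0.0577).

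The lists of ERBB signaling, growth and metabolism are given beside the 3.15% of all genes that were higher and the 4.38% that were lower. Of 15 ERBB receptors and ligands, 1 rose, the ligand gene Nrg1 (log2 fold change 0.40, adjusted p = 0.0408). Nrg1 missed the threshold in 4 alternatives, among them 1 array per mouse, with adjusted p between 0.052 and 0.114. Erbb3, the kinase-impaired partner of ERBB2, and Egfr had log2 fold changes of -0.13 and -0.18 (adjusted p = 0.468 and 0.0949). Of 17 ERK output genes, the phosphatase gene Dusp6 and the inhibitor Spry1 fell, by 0.26 and 0.30. None of 19 AKT, mTOR and ERK components was called by limma, with 2 higher and 2 lower at an unadjusted p under 0.05. None of 15 hypoxia and glycolysis genes was called, with 1 higher at an unadjusted p under 0.05. Of 18 proliferation genes, Pcna rose by 0.22 and Cdc20 fell by 0.27. Of 18 glutathione genes, Gclm rose by 0.17 and Gstt3 fell by 0.24. Only Insig1 was called of 15 genes of fatty acid synthesis, and it fell by 0.41. By limma, 8 genes of that list were lower and 0 higher at an unadjusted p under 0.05, with a median log2 fold change of -0.25. With 1 array per mouse, Spry1, Pcna, Cdc20 and Gclm missed the threshold (adjusted p = 0.0803, 0.122, 0.193 and 0.0671), and with tumor 063T1 among the FVB tumors so did Dusp6 (adjusted p = 0.0842). None of 15 interferon response genes was called by limma, with 4 higher and 0 lower at an unadjusted p under 0.05 and a median log2 fold change of 0.23 over the list. Ifit3 came closest (log2 fold change 0.75, adjusted p = 0.0529). Of 13 class I genes, H2-T10 fell by 0.52.

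Over all 29 lists, 8 of 324 measured genes were higher and 16 lower, beside 3.15% and 4.38% of all genes. Among the marker genes of cell types, none of 10 luminal, 10 basal, 14 fibroblast, 10 endothelial, 9 T cell and 9 B and plasma cell genes was called by limma. At an unadjusted p under 0.05 there were 1 luminal, 2 basal, 1 fibroblast and 1 endothelial gene, and 0 T or B cell genes. The mean of the luminal list was 10.66 ± 0.33 (SD, n = 140) in F1BX and 10.69 ± 0.14 (SD, n = 25) in FVB tumors. Of 11 macrophage genes, Adgre1, the F4/80 antigen, rose by 0.30 (adjusted p = 0.0455, and 0.393 with all F1BX arrays), and the mean of that list ranged between 8.30 and 11.33 in F1BX tumors and between 8.40 and 9.87 in FVB tumors. The integrin gene Itgax, on dendritic cells and macrophages, rose by 0.47 (adjusted p = 0.000674). Its part in the H2-Eb1 difference was not tested. Esr1, the estrogen receptor of hormone-sensing luminal cells, fell by 0.61 (adjusted p = 0.00134), and the 5 other measured genes of its list were not called. Of 5 Schwann cell and nerve genes, only the cadherin gene Cdh19 was called, and it fell by 0.72 (adjusted p = 0.00518). The log2 fold changes of that list reached up to 0.36. Of 8 dendritic cell genes, Itgax was called higher and the transcription factor gene Batf3 lower. Batf3 fell by 0.09 (adjusted p = 0.0481, and 0.196 with 1 array per mouse). The median log2 fold change of the dendritic cell list was -0.0069. None of 8 luminal progenitor, 9 adipocyte, 8 neutrophil, 6 mast cell, 8 skeletal muscle and 2 erythrocyte genes was called by limma, with 1 neutrophil gene and 0 of the others at an unadjusted p under 0.05.

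Called genes were unevenly placed on the chromosomes. Chromosome 4 held 210 of the 873 genes lower in F1BX tumors and 6 of the 628 higher, so that 18.2% of its 1154 genes were lower, against 4.38% over all genes. Chromosome 8 had 89 lower and 12 higher of 955 genes, and chromosome 15 had 53 higher and 21 lower of 747. The chromosome 4 genes moved little each, with a median log2 fold change of -0.08, but together.

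**Figure D4:**
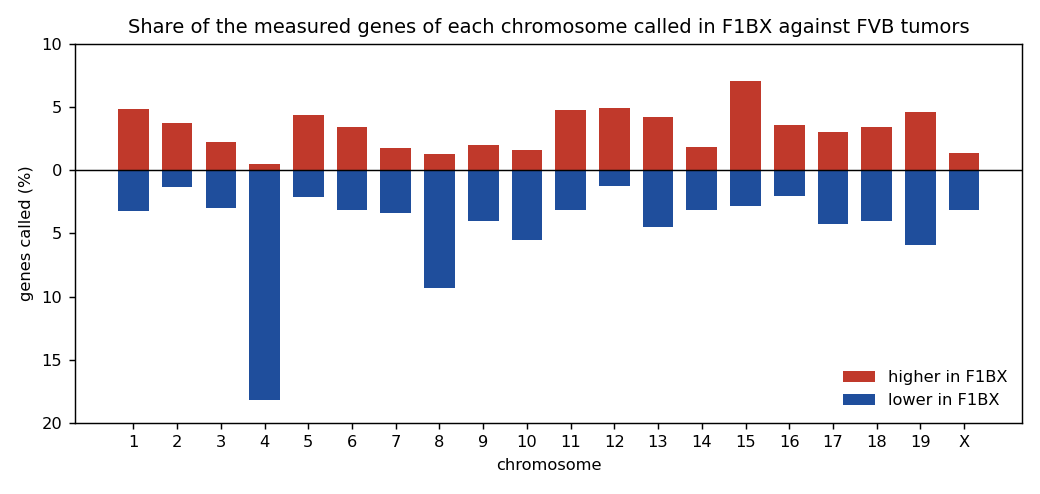
Percent of the measured genes of each chromosome (x axis) called higher (upward bars) and lower (downward bars) in F1BX against FVB tumors at an adjusted p under 0.05. Chromosome 4 has the longest downward bar, with 18.2% of its genes lower.

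The level of a chromosome was therefore taken in each tumor, as the median over its expressed genes of the deviation from the gene's median, minus the same over all chromosomes. This measure and its zero point were chosen after the data were seen. The chromosome 4 level, over 725 genes, was at -0.31, -0.06 and 0.30 (lowest, median and highest) in F1BX tumors and at -0.27, 0.27 and 0.30 in FVB tumors. It was below 0 in 75 of 140 F1BX tumors and in 7 of 25 FVB tumors. The levels clustered at both ends, FVB tumors mostly at the upper one. Tumors of the same mouse often differed, since 18 of the 30 F1BX mice with at least 2 tumors had tumors on both sides of 0, and so had 3 of the 4 FVB mice. In the 22 F1 tumors it was below 0 in 18. The chromosome 8 level was below 0 in 52 F1BX and 4 FVB tumors, with a lowest value of -0.48 in F1BX and -0.12 in FVB tumors.

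Npy, although on chromosome 6, moved with the chromosome 4 level. No F1BX tumor with a chromosome 4 level below 0 had Npy above 9.12, while in the other F1BX tumors Npy reached 13.08. Among FVB tumors, those with a level below 0 had Npy up to 10.00, and the others up to 13.06. Myo7a moved the other way, at 8.18 or more in every F1BX tumor with a level below 0 and as low as 7.02 in the others. H2-Eb1 was high in F1BX tumors on either side, reaching 9.70 in F1BX tumors below 0 and 10.47 in the others, and never above 7.57 in FVB tumors. In the 4 tumors of the F1BX mouse with tumors 117T2 to 117T5, H2-Eb1 was between 6.96 and 7.30, while Npy was at 9.12 in 117T2, with a chromosome 4 level of -0.21, and at 11.49, 12.98 and 13.07 in 117T3, 117T4 and 117T5, with levels of 0.23, 0.23 and 0.18. In the other F1BX mouse with 4 tumors, Npy did not follow the level in every tumor. Npy was at 11.08, 11.05, 7.26 and 6.69 in 299T1, 299T2, 299T4 and 299T6, with levels of 0.27, 0.06, 0.27 and -0.07.

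**Figure D5:**
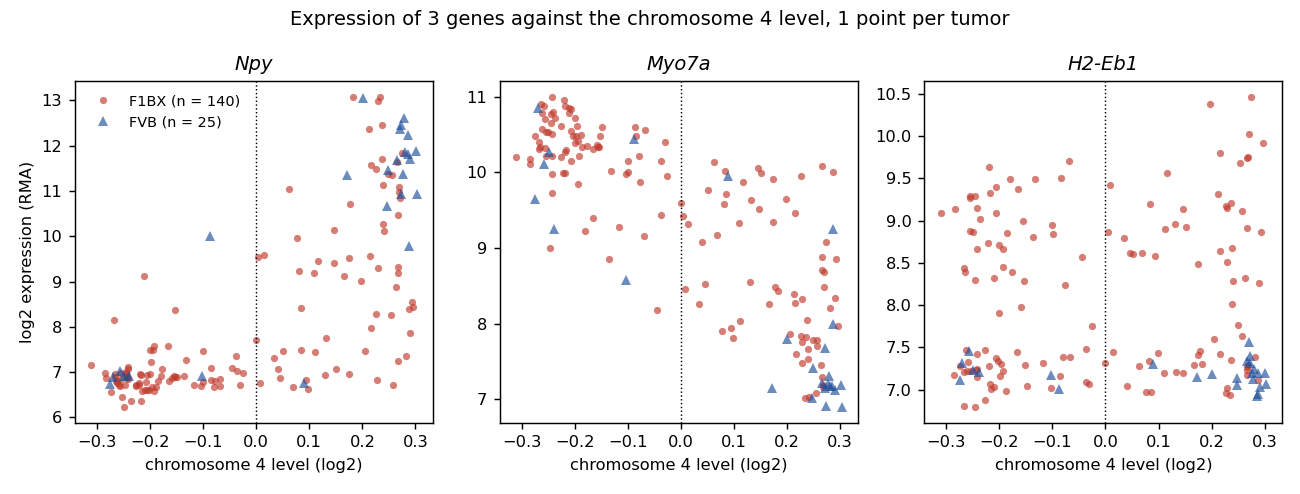
Log2 expression (y axis) of Npy, Myo7a and H2-Eb1 against the chromosome 4 level (x axis, log2), 1 point per tumor, circles for 140 F1BX and triangles for 25 FVB tumors, with a dotted line at a level of 0. High Npy lies to the right and high Myo7a mostly to the left in both groups, while high H2-Eb1 is found on both sides among F1BX tumors and in no FVB tumor.

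With the chromosome 4 level as a covariate of the fit, 296 genes were higher and 425 lower, and 242 of the 628 and 309 of the 873 genes stayed called in the same direction. Of the 12 most increased genes, 7 stayed called, namely D17H6S56E-5, H2-Eb1, Trim12a, Trim30d, Usp17ld, Myo7a and Sema3b. The log2 fold changes of D17H6S56E-5, H2-Eb1 and Trim12a became 1.74, 1.05 and 1.53, and that of Myo7a became 0.64. Cpe, Bcar3, Trpm3, Clca3a1 and Clca3a2 did not, Cpe with a log2 fold change of 0.20 (adjusted p = 0.675). Of the 12 most decreased genes, Npy, Vsnl1, Efhd1, Duox1, Gldc and Pakap stayed called, with log2 fold changes closer to 0 than without it. Npy was at -1.33 (adjusted p = 0.000809), Vsnl1 at -1.09, Efhd1 at -0.97, Duox1 at -1.03, Gldc at -0.79 and Pakap at -0.61. Btn1a1, Csn1s2b, Rdh12, Lao1, Dkkl1 and Spink5 did not, and 0 of the milk genes stayed called. Stat5a and Stat5b missed the threshold as well, at -0.26 and -0.13 (adjusted p = 0.0708 and 0.363), and so did Cdh19 (adjusted p = 0.0596). The covariate itself differed between the groups, so its part and that of the background cannot be told apart.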

How the data were processed

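The deposited values were log2 expression values, normalized by RMA by the authors in 1 table for 35556 probe sets and 222 arrays. For RMA no version was given in the sources used here. Array values have no counting depth, so the number of tumors limits the precision. Gene symbols came from the platform annotation, 21789 probe sets with 1 symbol, 1621 with several and 12146 with none. Chromosomes came from RefSeq on GRCm38.p6. Array probes follow a reference sequence, and probes over strain differences were not removed. The 140 F1BX and 25 FVB tumors were compared with limma 3.58.1 in R 4.3.3, with the mouse as a random block (consensus correlation 0.0996) and Benjamini-Hochberg adjustment over all probe sets. Each gene stood for its probe set of highest mean. Spread was tested in the same way on absolute deviations from the group median. The intraclass correlation came from a variance analysis over the 30 F1BX mice with at least 2 tumors. SAM, named in the study's methods, was not run. Named genes were the 12 largest changes in each direction, the 8 largest spread differences in each direction, Erbb2 and the genes of 29 lists, predicted genes left out. The tumors and lists were chosen with earlier results of these data known. Called genes with an intraclass correlation of at least 0.5 were picked after the values were seen. The fits were tested on simulated data. Where nothing says that tumors of different mice were processed apart, p-values measure only the spread between these samples.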

Additional observations from a re-analysis of the deposited data

Results flagged for a closer look

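Tumor 063T1 is labelled FVB but has a name of the F1BX form, and was not in the comparison. Of the 31 genes named for their change or spread, it lay above the highest of the 25 FVB tumors for 6 and within their range for 25. Apobec3 was at 10.52 in 063T1, with a highest FVB tumor of 9.85, and Arntl2 at 7.92, with a highest FVB tumor of 6.90. Sema3b was at 9.66, Trim12a at 7.24, Usp17ld at 10.59 and Zfp239 at 9.29 in 063T1, against highest FVB values of 8.25, 5.91, 9.57 and 8.20. These genes drew attention because a signal appeared above the compared FVB tumors in an array outside the comparison. The label of 063T1 was not tested.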

How the results depend on the processing

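The counts depended on the arrays used. Over all probe sets, 2824 were called, and 1701 with 1 array per mouse (857 higher and 844 lower) and 1520 with the chromosome 4 level as a covariate, added after seeing the data (837 higher and 683 lower). With all F1BX arrays, 785 were higher, and with a weight for each group, 2051 were lower. Of counts at the stricter FDR and the 2-fold limit, the chromosome 4 covariate gave 20, against 43. For genes, 363, 279 and 296 were higher with 1 array per mouse, all F1BX arrays and the covariate, and 972 with group weights, against 628. Lower were 565, 425 and 1355 genes with 1 array per mouse, the covariate and group weights, against 873. Lower genes of chromosome 4 numbered 123 with 1 array per mouse and 32 with the covariate, against 210. The covariate was computed from the expressed genes of chromosome 4 themselves, so fewer calls among them follow from how it was made. The spread test called 77 probe sets, and 46 on squared deviations. The spread difference of Ubtfl1 was -0.10 and turned to 0.039 with all F1BX arrays. Of 56 results on named genes, 45 on level and 11 on spread, 14 missed the threshold with 1 array per mouse, 9 with all F1BX arrays (Ubtfl1 among them), 5 with tumor 063T1 among the FVB tumors and 2 after quantile normalization. Of the 45 on level, 21 missed it with the covariate and 1 with F1 tumors in the fit, and of the 11 on spread, 3 on squared deviations. No paired analysis was possible because tumor numbers name tumors within a mouse, and no mouse gave both F1BX and FVB tumors.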
